A study of Oncorhynchus mykiss with 13 samples.

Results

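Late vitellogenesis and post-vitellogenesis, the last ovarian stages before meiosis resumption, were compared in the rainbow trout (Oncorhynchus mykiss). The comparison used the 4 arrays labelled post-vitellogenesis (PV) and the 3 labelled late vitellogenesis (LV), which were 7 of the 13 arrays of the study. The 6 arrays of the oocyte maturation stage entered only 1 alternative fit, of all 3 stages together, and are quoted as ranges beside some clones. Each array was a nylon membrane spotted with trout cDNA clones and hybridized with phosphorus-33 labelled cDNA from ovarian tissue of 1 female. The tissue was an aliquot of the ovary with its cell types not separated. The array held 9023 clones, of which the 8387 above 0 on all 7 membranes were analysed. All females were 2-year-old fish of an autumn-spawning strain in their first reproductive season, none was treated, and each was sampled once. The stage of each ovary was read from its oocytes under a microscope. The germinal vesicle, the nucleus of the oocyte, was out of sight in the LV stage, while the PV stage, a few weeks nearer to ovulation, was known by a germinal vesicle that had moved outward or by polarized cytoplasm, with yolk not yet cleared. The label of PV female 14 places its germinal vesicle in the periphery, and those of PV females 13, 15 and 31 give no position.

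During vitellogenesis the oocyte takes up vitellogenin, a yolk precursor made by the liver under the control of estradiol. Estradiol comes from the follicle, where aromatase (cyp19a1) in the granulosa cells converts androgens into estrogens. Once yolk uptake ends, the follicle shifts from estrogens to the progestin that induces oocyte maturation, the oocyte acquires the ability to respond to it, and ion and water transport later accompany oocyte hydration and ovulation. A value given here is a spot's signal, corrected for the amount of DNA spotted and divided by the median of its array, and is called a ratio. Ratios of different clones cannot be ranked, because spots differ in insert length and hybridization. Differences are on the log2 scale, PV minus LV. Because the cell types of the ovarian tissue were not separated, fewer cells of a type and less RNA per cell cannot be told apart.

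Across all clones the arrays were close to each other. Correlations of log2 ratios between arrays ran from 0.943 to 0.980 within PV, from 0.960 to 0.981 within LV and from 0.936 to 0.980 between the stages. PV female 14 had the most clones at least 2-fold above the median of the other 6 arrays (110, against 9 to 13 on each of the others), and LV female 3 had the most clones at least 2-fold below it (49, against 3 to 19 on the others). PV female 14 and PV female 31 decided several results below, which are therefore also given without them. The median SD of a clone between females was 0.175 in PV and 0.177 in LV (log2 scale). The only cell type markers that could be read were those of the granulosa and of smooth muscle. For the granulosa this was cyp19a1, measured in every female, whose 2 clones differed by -1.65 and -1.82 (neither past the adjusted test). Granulosa content therefore cannot be read apart from the level of this gene. For smooth muscle, the clones similar to caldesmon and smoothelin differed by 0.11 between stages (95% intervals -0.31 to 0.52 and -0.27 to 0.49). Both are among clones that the study picked with these arrays as sharply higher at meiosis resumption. On the maturation arrays their ratios ran from 1.30 to 2.83 and from 2.72 to 5.59. Smooth muscle content therefore cannot be read apart from the levels of these genes either. The clone names used here held no marker of the other cell types of the ovary.

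Only 2 of the 8387 clones rose and 0 fell between LV and PV (limma, adjusted p under 0.05), which are 0.0238% and 0.0% of the clones tested. A SAM-style permutation test, the kind of test the study used, called 4 clones higher and 0 lower, and limma with array weights called 5 higher and 2 lower. The weighted fit leaned on LV female 4 (weight 3.96) and PV female 15 (2.25), where the other females had weights of 0.356 to 1.105. At an unadjusted limma p under 0.05, 237 clones (2.83%) were higher and 73 (0.87%) lower in PV, or 310 (3.7%) in all, and 4 (0.0477%) had an adjusted p under 0.10. The share of 3.7% is below the rate of 0.05 at which clones pass this unadjusted threshold when nothing differs. An unadjusted p under 0.05 thus does not by itself mark a clone as changed. The 4 PV females lay entirely above the 3 LV females for 305 clones (3.64%) and entirely below them for 109 (1.3%). For a clone that does not differ, 1 of the 35 assignments of the arrays to the stages gives each of these outcomes. A lack of overlap thus does not by itself mark a clone as changed either. The excess of clones above over clones below depended on the scaling. After quantile normalization the numbers were 224 above and 210 below, and after re-centring on the analysed clones they were 233 above and 164 below, so that the share above was 73.7%, 51.6% and 58.7% under the 3 scalings. Clones at an unadjusted p under 0.05 likewise split into 237 higher and 73 lower with the deposited scaling, 194 and 167 after quantile normalization, and 189 and 98 after re-centring. A difference of at least 2-fold was measured for 11 clones higher in PV (0.131%) and 2 lower (0.0238%). For the median clone, the 95% interval of the difference extended 0.32 on the log2 scale, or 1.25-fold, to either side of the estimate. This interval is not adjusted for the number of clones, and the smallest difference called by the adjusted test was 2.004-fold.

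**Figure D1:**
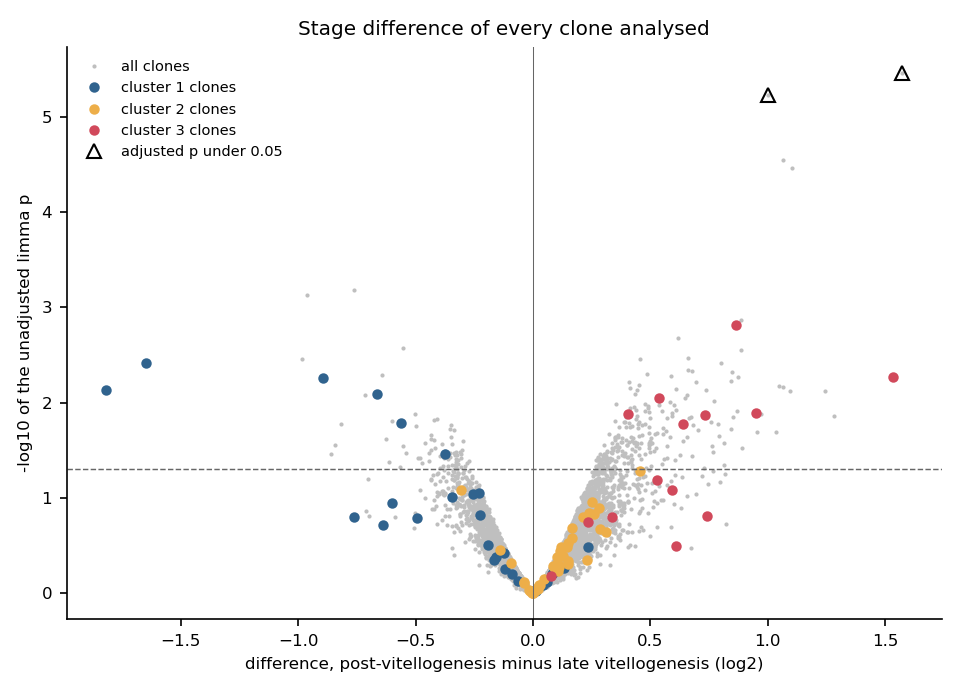
Stage difference of each of the 8387 clones (x axis, log2 ratio in PV minus LV) against the -log10 of its unadjusted limma p (y axis), with the clones of the study's 3 clusters in colour and the clones that passed the adjusted test as triangles. The dashed line marks an unadjusted p of 0.05, and the 2 triangles lie at differences of 1.57 and 1.003.

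The clones that rose could not be given a gene name here. Clone tcad0002.l.09 had ratios of 11.2, 21.3, 13.8 and 13.02 in PV females 13, 14, 15 and 31, against 4.65, 5.11 and 4.77 in LV females 2, 3 and 4. Every PV female was more than 2-fold above every LV female, and the LV females were close together. The difference was 1.57 (SE 0.19, 95% interval 1.15 to 1.99), or 2.98-fold higher in PV (adjusted p = 0.025, limma). It did not pass when PV female 15 (adjusted p = 0.082, limma) or LV female 2, 3 or 4 (0.097, 0.11 and 0.14) was left out, and its direction held in each case. On the 6 maturation arrays its ratio ran from 12.02 to 23.2, a range that covers 3 of the 4 PV values.

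Clone tcbk0002.g.05 had ratios of 1.24, 1.22, 1.10 and 1.21 in PV females 13, 14, 15 and 31, against 0.600, 0.528 and 0.667 in LV females 2, 3 and 4. Here the 4 PV females were nearly equal, and the difference of 1.003 (SE 0.13, 95% interval 0.72 to 1.28) came to 2.004-fold higher in PV (adjusted p = 0.025, limma). It passed without PV female 31, but not without any of the other 6 females (adjusted p from 0.072 without PV female 14 to 0.18 without PV female 13, limma). Its ratio was 1.69 to 3.55 on 5 of the 6 maturation arrays and was listed at 0 on the other one.

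No clone fell by the adjusted test. The 2 clones of smallest p among those lower in PV, which also lack a gene name, were tcbk0051.d.07 and tcbk0058.l.01. Clone tcbk0051.d.07 had ratios of 0.624, 0.578, 0.741 and 0.630 in PV females 13, 14, 15 and 31, against 1.24, 0.830 and 1.25 in LV females 2, 3 and 4. Clone tcbk0058.l.01 had 0.537, 0.537, 0.386 and 0.728 in the same PV females, against 0.827, 1.03 and 1.33 in the LV females. Neither clone overlapped between the stages, at 1.70-fold and 1.95-fold lower in PV, and neither passed (adjusted p = 1.0, limma).

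**Figure D2:**
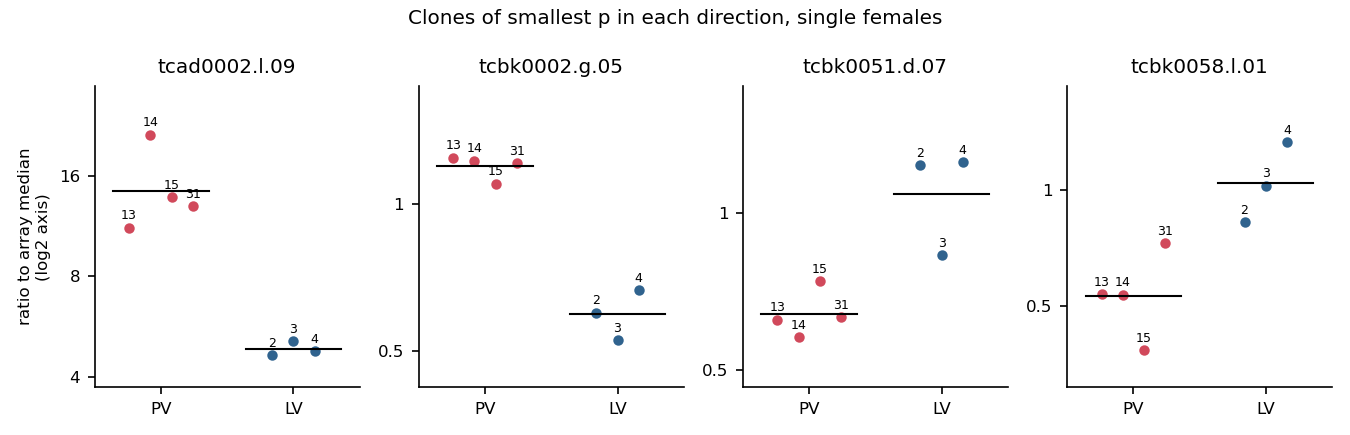
Ratio to the array median (log2 axis) of the 2 clones that rose (left) and the 2 clones of smallest p among those lower in PV (right), for each female. Points are females with their numbers, bars are geometric means, and in all 4 panels the PV and LV females do not overlap.

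The genes with names come from 3 clusters of clones set apart in the study, of which 89 clones were analysed. Most names are best SwissProt matches from other species, written here with "-like". The genes taken to real-time PCR keep the names the study gave them, though most of these are also best matches. The study states that members of protein families need a phylogenetic analysis to be identified better. Because the study picked them with the arrays used here, those of maturation included, their counts and directions are a description and not independent evidence. None of the 89 passed the adjusted test (adjusted p = 1.0 for each, limma), and 0 were called by the SAM-style test or with array weights. The 95% intervals given below are those of single clones, not adjusted for the number of clones. At an unadjusted p under 0.05, 7 of the 89 (7.87%) were higher and 6 (6.74%) lower in PV, where 2.83% and 0.87% of all clones were. Of the 89, 7 lay entirely above and 4 entirely below the LV females, where 3.64% and 1.3% of all clones did. The median difference over the 89 was 0.06, against 0.03 over all clones. The ratio varied at least 2-fold among the 4 PV females for 20 of the 89, against 1 among the 3 LV females, where over all clones 319 (3.80%) and 223 (2.66%) did so. Without PV females 14 and 31, the CYP2J3-like, LTBP2-like and C9orf10-like clones described below were no longer at an unadjusted p under 0.05, and the other clones named as such remained under it. With array weights, LV female 3 had the lowest weight (0.356), and single listed clones are not given without this female. In that weighted fit 16 of the 89 had an unadjusted p under 0.05, against 13 in the main fit. Among those no longer under it were cyp19a1 clone tcbk0013.n.16 (difference -0.85), CYP2J3-like (-0.32) and C9orf10-like (-0.28).

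The enzymes of steroid, retinoid and cytochrome P450 metabolism included the lowest differences among the listed clones. Of 8 clones, 4 were lower at an unadjusted p under 0.05, 0 were higher and 4 did not pass, with a median difference of -0.45, where 0.87% of all clones were lower and 2.83% higher. Both clones of cyp19a1 were among the 4. Clone tcac0004.f.21 of cyp19a1 had ratios of 6.62, 3.33, 13.4 and 2.24 in PV females 13, 14, 15 and 31, against 14.7, 19.2 and 14.2 in LV females 2, 3 and 4. The LV females differed 1.34-fold among themselves and the PV females 5.98-fold, with PV female 15 just under the lowest LV female. The difference was -1.65 (SE 0.46, 95% interval -2.65 to -0.64), or 3.13-fold lower in PV. Clone tcbk0013.n.16 of cyp19a1 had 3.61, 1.79, 8.99 and 0.963 in the same PV females, against 10.8, 11.9 and 6.98 in the LV females. It placed the PV females in the same order, with PV female 15 above LV female 4, and its difference was -1.82 (SE 0.56, 95% interval -3.04 to -0.59), or 3.52-fold lower in PV. The 2 clones report 1 gene and are not independent. Without PV females 14 and 31 their differences were -0.76 each, under a 2-fold change. On the maturation arrays the ratios ran from 1.24 to 2.09 and from 0.315 to 0.650, so that the lowest PV female stood above the highest maturing female for each clone. By real-time PCR on more females, those of the arrays included, the study reports a decrease of cyp19a1 from LV to PV.

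The other clones of this group differed less. The CYP2J3-like clone (tcac0006.f.17), similar to a P450 that oxidizes fatty acids in mammals, had ratios of 1.39, 1.35, 2.17 and 1.10 in PV females 13, 14, 15 and 31, against 2.21, 2.76 and 2.01 in LV females 2, 3 and 4. As for the second cyp19a1 clone, PV female 15 alone reached the LV values, and the CYP2J3-like clone was 1.59-fold lower in PV (difference -0.66, 95% interval -1.12 to -0.21). The cytosolic sulfotransferase 3-like clone (tcay0023.a.19), of a family that conjugates small molecules such as steroids with sulfate, had 1.21, 1.30, 0.83 and 0.708 in those PV females, against 1.43, 1.39 and 1.52 in the LV females. It did not overlap between the stages, and here PV female 15 was among the lower females (difference -0.56, 95% interval -0.998 to -0.12). For the NADPH-cytochrome P450 reductase-like clone (tcba0022.f.09), similar to the electron donor of microsomal P450 enzymes, the difference was -0.35 and the interval, -0.76 to 0.07, included 0. The difference was positive for 2 of the 8 clones of the group, at most 0.25. The group as a whole, in which cyp19a1 counts with 2 clones, had a mean log2 difference of -0.58, and of -0.29 without PV females 14 and 31.

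**Figure D3:**
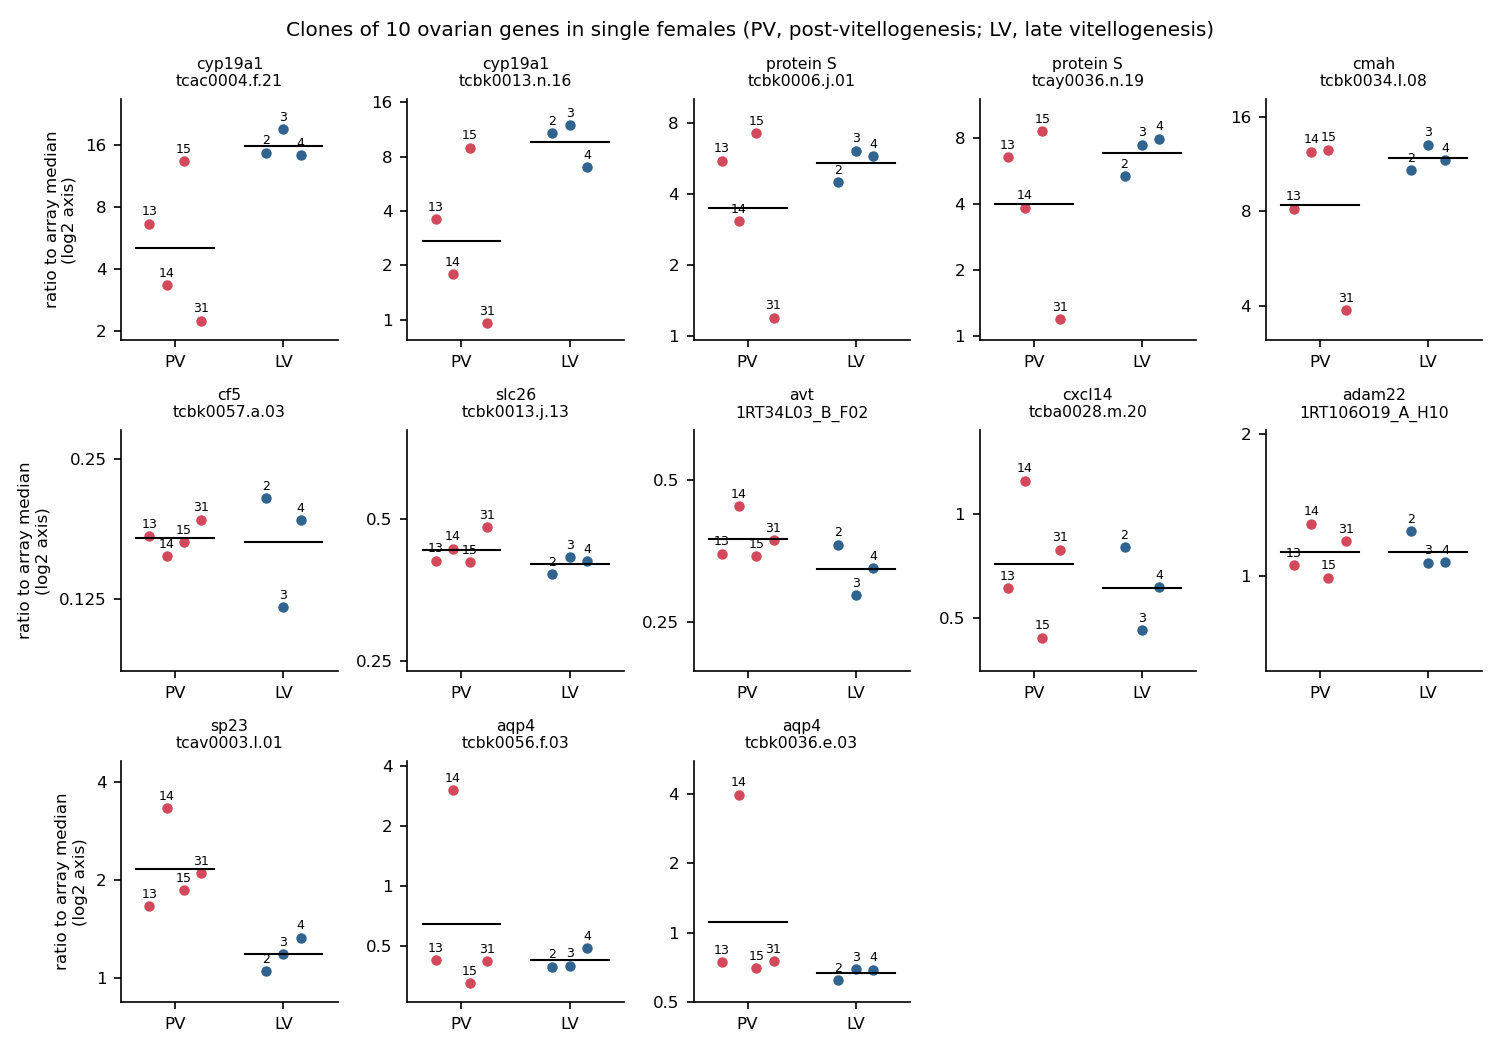
Ratio to the array median (log2 axis, scaled per panel) of 13 clones of the genes also taken to real-time PCR. Points are females with their numbers and bars are geometric means. For cyp19a1 and protein S the PV females spread 5.98-fold to 9.34-fold, for both aqp4 clones PV female 14 stands alone, and the LV females stay within 1.71-fold for all of these.

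None of the 4 clones for coagulation proteins was higher or lower at an unadjusted p under 0.05. The 2 clones of protein S, a vitamin K-dependent plasma protein that restrains coagulation, differed by -0.76 (tcay0036.n.19) and -0.64 (tcbk0006.j.01), with 95% intervals of -1.87 to 0.35 and -1.65 to 0.37. In clone tcay0036.n.19 the ratio was 6.53, 3.86, 8.597 and 1.20 in PV females 13, 14, 15 and 31, against 5.34, 7.45 and 7.93 in LV females 2, 3 and 4. PV female 31 alone was far below the others, at a value within the range of the maturing females (0.974 to 1.75). Clone tcbk0006.j.01 gave 5.53, 3.07, 7.22 and 1.20 in the PV females, against 4.50, 6.10 and 5.80 in the LV females, and thus the same order of PV females. Without PV females 14 and 31 the sign turned, at 0.14 and 0.22. For protein S the study reports no significant difference between LV and PV by real-time PCR. The cf5 clone (tcbk0057.a.03), coagulation factor V, had a ratio of 0.171, 0.154, 0.166 and 0.185 in the PV females, against 0.206, 0.120 and 0.185 in the LV females. It did not separate the stages (difference 0.02, 95% interval -0.37 to 0.41), while its maturation arrays ran from 1.05 to 2.85.

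Among 10 clones of redox and metabolism, none was at an unadjusted p under 0.05, and 5 were higher and 5 lower in PV, with a median difference of -0.05. The cmah clone (tcbk0034.l.08), the enzyme that hydroxylates CMP-sialic acid, had ratios of 8.16, 12.4, 12.6 and 3.88 in PV females 13, 14, 15 and 31, against 10.8, 13.01 and 11.6 in LV females 2, 3 and 4. PV females 14 and 15 were inside the LV range, and PV female 31 was the lowest, as for protein S, so that the difference was -0.49 (95% interval -1.21 to 0.23). The 2 clones of smallest p in this group were ELOV1-like (tcba0014.c.14), similar to an enzyme that elongates very long-chain fatty acids, and NADH dehydrogenase 15 kDa subunit-like (tcay0017.l.02), a part of the mitochondrial respiratory chain. Their differences were -0.31 and -0.25, with intervals that included 0.

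The median difference of 9 clones of translation, RNA and protein folding was -0.09. Over all clones 0.87% were lower and 2.83% higher at an unadjusted p under 0.05, and here 0 were higher and 1 was lower. This clone was RNPC2-like (tcac0002.f.11), similar to an RNA-binding protein that in mammals acts as a coactivator of nuclear receptors, with ratios of 3.66, 2.85, 5.12 and 1.95 in PV females 13, 14, 15 and 31, against 5.52, 7.05 and 5.37 in LV females 2, 3 and 4. All PV females were below the LV females, in the same order as for cyp19a1. The clone was 1.86-fold lower in PV (difference -0.89, SE 0.26, 95% interval -1.47 to -0.32), and its difference without PV females 14 and 31 was -0.45.

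Clones higher in PV were found in the group of matrix, junction, lysosome and lipid transport proteins. At an unadjusted p under 0.05, 3 of its 7 clones were higher and 0 lower, where 2.83% of all clones were higher and 0.87% lower. The median difference of the group was 0.41 and the smallest 0.02. All 3 higher clones belong to cluster 3, which the study describes as rising before meiosis resumption. The largest was apolipoprotein C-I-like (1RT65F10_D_C05), similar to a protein of plasma lipoproteins, with ratios of 4.17, 19.9, 4.23 and 4.82 in PV females 13, 14, 15 and 31, against 2.17, 2.85 and 1.75 in LV females 2, 3 and 4. PV female 14 was about as high as the maturing females (11.7 to 22.5), and the other 3 PV females were close to each other and still above the LV range. The difference was 1.54 (SE 0.45, 95% interval 0.55 to 2.52), or 2.901-fold higher in PV. Without PV female 14 it was 0.99.

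The 2 palmitoyl-protein thioesterase 1-like clones, similar to a lysosomal enzyme that removes fatty acids from proteins, were both highest in PV female 14 and next highest in PV female 13. Clone tcad0003.m.13 had ratios of 2.19, 4.16, 1.30 and 1.35 in PV females 13, 14, 15 and 31, against 1.09, 1.05 and 0.976 in LV females 2, 3 and 4, which put every PV female above the LV range (difference 0.95, 95% interval 0.24 to 1.66). In clone 1RT63G21_A_D11, PV female 31 was inside the LV range, and the difference was 0.53 (95% interval -0.04 to 1.10). The LTBP2-like clone (tcac0006.o.01), similar to a matrix protein related to the binding proteins of TGF-beta, had ratios of 1.04, 1.36, 1.07 and 1.19 in the PV females, against 0.825, 0.982 and 0.827 in the LV females. The groups did not overlap, and the difference was 0.41 (95% interval 0.10 to 0.71).

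In the group of proteases, peptidases and inflammation the median difference of 9 clones was 0.09. At an unadjusted p under 0.05, 1 was higher and 0 were lower, where 2.83% and 0.87% of all clones were. The 1 clone was sp23 (tcav0003.l.01), serine protease 23, which had the smallest p of the 89 listed clones. Its ratio was 1.66, 3.33, 1.86 and 2.10 in PV females 13, 14, 15 and 31, against 1.05, 1.18 and 1.33 in LV females 2, 3 and 4. Every PV female was above the LV range, and PV female 14 reached the lower end of the maturing females (3.10 to 6.95). The difference was 0.87 (SE 0.21, 95% interval 0.41 to 1.33), or 1.82-fold higher in PV, and without PV females 14 and 31 it was 0.57. The cxcl14 clone (tcba0028.m.20), a chemokine, had ratios of 0.610, 1.25, 0.438 and 0.788 in the PV females, against 0.801, 0.462 and 0.613 in the LV females. PV female 14 was again the highest, and the stages overlapped widely (difference 0.23, 95% interval -0.42 to 0.88). For adam22 (1RT106O19_A_H10), a membrane protein of the disintegrin and metalloprotease family, the ratio was 1.05, 1.29, 0.993 and 1.19 in the PV females, against 1.24, 1.07 and 1.07 in the LV females. Its difference was 0.00 with a 95% interval of -0.30 to 0.30, so a change of more than 1.23-fold in either direction lay outside the interval.

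Of the 9 clones for water, ion and metal transport and for neurohypophysial hormones, 0 were at an unadjusted p under 0.05, and the median difference was 0.17. The 2 clones of aquaporin 4 (aqp4), a water channel, were high in 1 PV female. Clone tcbk0036.e.03 had ratios of 0.742, 3.98, 0.699 and 0.749 in PV females 13, 14, 15 and 31, against 0.621, 0.692 and 0.690 in LV females 2, 3 and 4. Clone tcbk0056.f.03 had 0.428, 3.02, 0.328 and 0.420 in the PV females, against 0.396, 0.401 and 0.488 in the LV females. In both clones PV female 14 lay within the range of the maturing females (3.48 to 11.6 and 2.38 to 7.42), while PV females 13, 15 and 31 lay near the LV level. Females 13, 15 and 31 were all slightly above the highest LV female in clone tcbk0036.e.03, and none of them was in clone tcbk0056.f.03. The differences of 0.74 and 0.61 had 95% intervals of -0.32 to 1.81 and -0.68 to 1.90, and without PV female 14 they were 0.13 and -0.13. By real-time PCR on more females, those of the arrays included, the study reports an increase of aqp4 from LV to PV.

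The pendrin clone slc26 (tcbk0013.j.13), an anion exchanger, and the vasotocin clone avt (1RT34L03_B_F02), a neurohypophysial hormone precursor, were low in every female of both stages. The ratio of slc26 was 0.408, 0.432, 0.405 and 0.481 in PV females 13, 14, 15 and 31, against 0.381, 0.415 and 0.406 in LV females 2, 3 and 4. That of avt was 0.349, 0.440, 0.344 and 0.372 in the PV females, against 0.364, 0.285 and 0.324 in the LV females. PV female 14, high for aqp4, was close to the other PV females here, which spread 1.19-fold for slc26 and 1.28-fold for avt, and the maturation arrays ran from 2.63 to 8.90 for slc26 and from 6.53 to 13.3 for avt. The stage differences were 0.10 (95% interval -0.17 to 0.37) and 0.21 (95% interval -0.10 to 0.52). The transferrin receptor 1-like clone (tcba0006.l.19), similar to the receptor for iron uptake, resembled protein S. Its ratio was 4.84, 4.77, 9.53 and 2.30 in the PV females, against 6.61, 8.72 and 6.47 in the LV females, with PV female 15 the highest and PV female 31 the lowest of the 7 females (difference -0.60, 95% interval -1.37 to 0.16).

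Of 14 clones of kinases, transcription factors and signalling, 1 was higher at an unadjusted p under 0.05, where 2.83% of all clones were. The median difference of the 14 was 0.08. The receptor tyrosine phosphatase F-like clone (1RT67D22_D_B11), similar to a phosphatase of the cell surface that acts at adhesion sites, had ratios of 1.83, 2.61, 1.60 and 1.69 in PV females 13, 14, 15 and 31, against 1.30, 1.19 and 1.44 in LV females 2, 3 and 4. The stages did not overlap, and the clone was 1.45-fold higher in PV (difference 0.54, 95% interval 0.16 to 0.92). None of the 8 muscle and cytoskeleton clones passed an unadjusted p of 0.05, and their median difference was 0.10. The difference was positive for 7 of the 8, where it was positive for 59.8% of all clones. Their mean difference of 0.15 was 0.04 without PV female 14. The intermediate filament protein ON3-like clone (1RT63M21_A_G11), of the cytoskeleton, had 1.75, 3.44, 1.27 and 1.05 in the PV females, against 1.04, 1.17 and 1.14 in the LV females, with PV female 14 the highest and PV female 31 inside the LV range (difference 0.59, 95% interval -0.09 to 1.28). A dystrophin-like clone (1RT38L12_D_F06), similar to the protein that links the cytoskeleton to the membrane, differed by 0.28 (95% interval -0.10 to 0.66).

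Among 11 clones with no SwissProt match or an uncharacterized match, 2 were higher and 1 lower at an unadjusted p under 0.05. Over all clones 2.83% were higher and 0.87% lower. Clone tcbk0044.e.02, with no match, had ratios of 4.48, 8.31, 5.76 and 3.205 in PV females 13, 14, 15 and 31, against 2.91, 3.07 and 3.26 in LV females 2, 3 and 4, and only PV female 31 overlapped the LV range (difference 0.73, 95% interval 0.18 to 1.29). Clone tcbk0008.n.08, also with no match, had 1.11, 1.94, 1.04 and 0.968 in the PV females, against 0.777, 0.957 and 0.631 in the LV females, with no overlap (difference 0.64, 95% interval 0.14 to 1.14). The C9orf10-like clone (1RT148P13_B_H07) had 1.13, 1.42, 1.75 and 1.22 in the PV females, against 1.798, 1.72 and 1.77 in the LV females, and PV female 15 alone was within the LV range (difference -0.37, 95% interval -0.72 to -0.03).

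**Figure D4:**
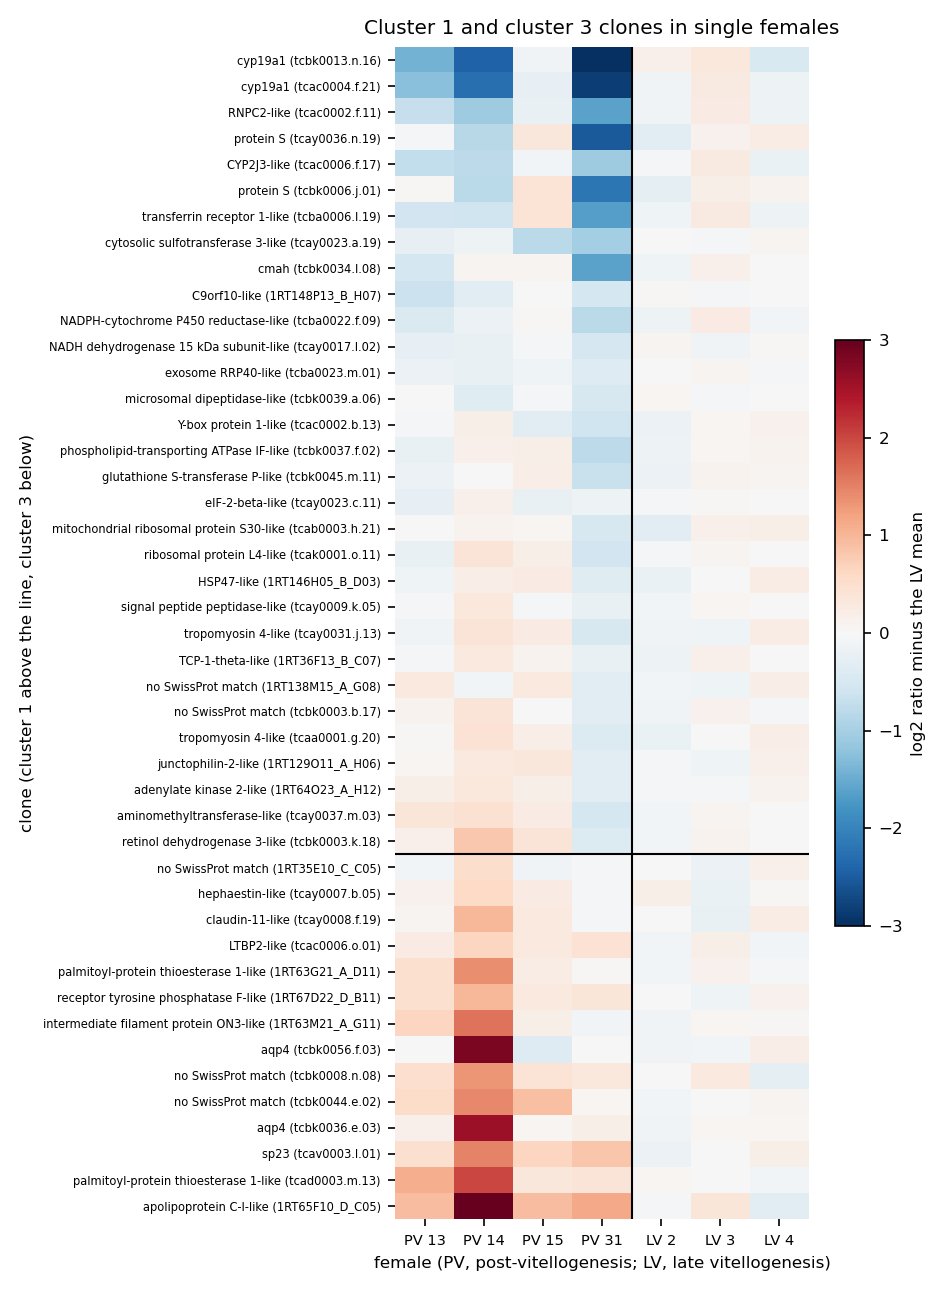
Log2 ratio minus the mean of the LV females, for the clones of cluster 1 (above the line) and cluster 3 (below it) in each of the 7 females, with 1 clone of cluster 1 left out. Red is above and blue below the LV mean, PV female 31 is blue through most of cluster 1, and PV female 14 is red through cluster 3.

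The same females stood out across whole clusters. The study formed the clusters by the likeness of clone profiles over its arrays, these 7 included. A female that stood out for 1 clone was thus likely to do so for others of its cluster. The shares over all clones given below do not allow for this. In cluster 1, 32 clones were analysed, among them cyp19a1, protein S, cmah and RNPC2-like. The study describes it as high in LV, low in maturation and intermediate or variable in PV. Its counts of clones lower in PV thus follow in part from how it was chosen. PV female 31 was below all LV females for 32 of the 32 and was the lowest of the 7 females for 30 (93.8%), where over all clones it was below all LV females for 21.2% and lowest for 15.5%. The mean log2 ratio over the cluster was 1.46, 1.52, 1.73 and 0.79 in PV females 13, 14, 15 and 31, against 1.58, 1.76 and 1.71 in LV females 2, 3 and 4. PV female 14 was below all LV females for 13 of these clones and above them for 14, where over all clones it was below for 24.3% and above for 32.99%. The mean was 1.38 ± 0.41 in PV (SD, n = 4) and 1.68 ± 0.09 in LV (SD, n = 3), and the difference of -0.30 was -0.11 without PV female 31. In this cluster 6 of 32 clones were lower at an unadjusted p under 0.05, 0 were higher, and 4 lay entirely below the LV females, where over all clones 0.87% were lower, 2.83% higher and 1.3% entirely below.

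In cluster 3, 14 clones were analysed, among them sp23, apolipoprotein C-I-like, the palmitoyl-protein thioesterase 1-like clones and aqp4. The study describes it as very low in LV and PV and rising before meiosis resumption. Its counts of clones higher in PV thus follow in part from how it was chosen. PV female 14 was the highest of the 7 females for 14 of the 14 clones, where over all clones it was highest for 24.04%. The mean log2 ratio was 0.39, 1.52, 0.29 and 0.23 in PV females 13, 14, 15 and 31, against -0.06, 0.00 and 0.00 in LV females 2, 3 and 4. The other PV females were nonetheless above the LV range for many of the clones, namely 10 of 14 in female 13, 12 in female 15 and 7 in female 31, where over all clones these females were above all LV females for 23.7%, 24.9% and 26.7%. The difference in mean was 0.63, and 0.32 without PV female 14. Of the 14 clones, 7 were higher at an unadjusted p under 0.05 and the same number lay entirely above the LV females, where over all clones 2.83% were higher and 3.64% entirely above.

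In cluster 2, which the study describes as sharply higher at meiosis resumption, 43 clones were analysed, among them avt, slc26, cf5, cxcl14 and adam22. None was at an unadjusted p under 0.05 and none separated the stages. With the deposited scaling the differences ran from -0.31 to 0.46, with 35 of 43 positive, where 59.8% of all clones were positive. After quantile normalization 48.1% of all clones were positive, and the mean difference of the cluster was 0.05. The positive clones of the cluster were not counted under that scaling. The mean log2 ratio was -0.60, -0.38, -0.67 and -0.51 in PV females 13, 14, 15 and 31, against -0.55, -0.79 and -0.58 in LV females 2, 3 and 4. LV female 3 was the lowest of the 7 for 22 of the 43 clones, where over all clones it was lowest for 27.3%. PV female 14 was the highest for 19 of the 43, where over all clones it was highest for 24.04%. The difference in mean was 0.10. Without LV female 3 it was 0.02, the lowest value when any single female was left out. It was 0.05 without PV female 14, 0.09 without PV female 31, and 0.00 without both of these. The part that the cell makeup of the ovary has in the values of PV females 14 and 31 was not tested.

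**Figure D5:**
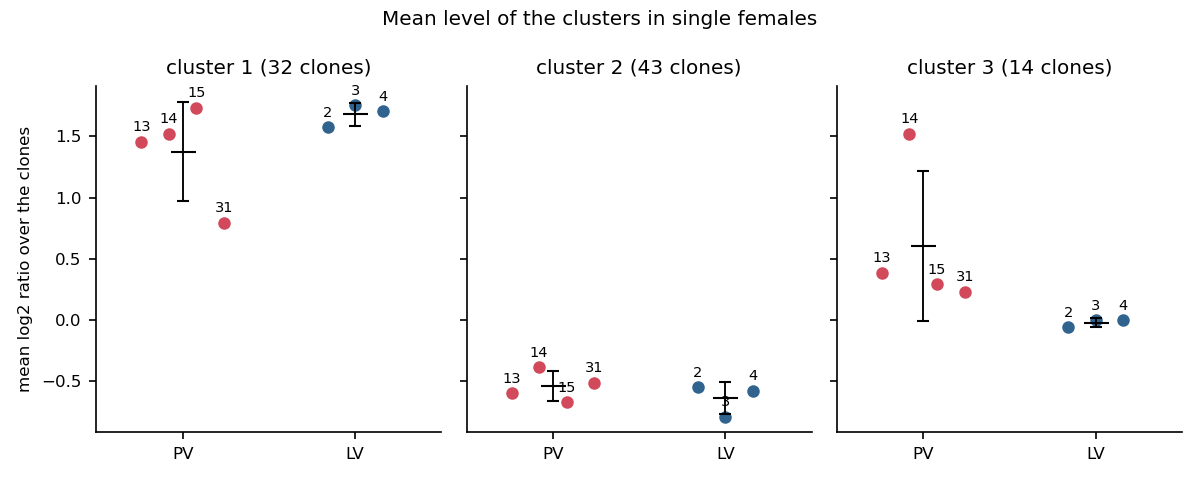
Mean log2 ratio over the clones of each cluster (y axis) in single females, with the mean and SD of each stage as bars. In cluster 1 PV female 31 lies at 0.79 and all other females between 1.46 and 1.76, and in cluster 3 PV female 14 lies at 1.52 and the other PV females between 0.23 and 0.39.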

How the data were processed

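Total RNA of ovarian aliquots of single females was reverse transcribed with phosphorus-33 and hybridized to nylon cDNA arrays, and each female gave 1 array. Deposited values are the authors' ratios: they filtered out spots with a low vector oligonucleotide signal, corrected each spot for its DNA and divided by the array median. Clones were spotted in duplicate and 1 value was deposited for each. Of 9216 spots, 9023 were clones, 128 were controls of 1 name, 64 were water and 1 was another spot. Array medians were 1, so no further scaling was made. The number of arrays limits the precision.

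The 636 clones at 0 on at least 1 of the 7 arrays were left out, since a 0 has no log2 value. Groups came from the stage given in the labels. Stages were compared with limma 3.58.1 in R 4.3.3 (lmFit, eBayes, two-sided) on log2 ratios of the 7 arrays with no covariate, with Benjamini-Hochberg adjustment over 8387 clones and a threshold of 0.05. P-values set the difference against the spread between separate females, pooled over the 2 stages and moderated by the spread of all clones. Folds are ratios of geometric means, and means are given ± SD. The script was tested on simulated data. Lists and named clones were chosen with earlier results of these data known. Named were the clones past the threshold (at most 2 without a gene name per direction, those of smallest p, given also where none passed), the clones of genes the study took to real-time PCR, and in each list those at an unadjusted p under 0.05, otherwise the 2 of smallest p. Items not reported here, and 1 of the 90 listed clones that was not analysed here, were left unnamed. Alternatives were quantile normalization, re-centring, a pseudocount of 0.1, a minimum mean ratio of 0.2, clones with zeros, linear ratios, a SAM-style test over 35 assignments, an intensity trend, array weights, all 3 stages in 1 fit, an adjusted p under 0.10, and leaving out each female or females 14 and 31. The clone names carry no sequence or position, and none is given.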

Additional observations from a re-analysis of the deposited data

Results flagged for a closer look

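In 3 of the 32 named clones, PV female 14 lay far from the other PV females by Dixon's test for 4 values. They were apolipoprotein C-I-like (1RT65F10_D_C05), with a ratio of 19.9 in female 14 against 4.17 to 4.82 in the other PV females, and the aqp4 clones tcbk0036.e.03, at 3.98 against 0.699 to 0.749, and tcbk0056.f.03, at 3.02 against 0.328 to 0.428. The test marks about 1 in 20 groups by chance, and it marked 5.77% of all clones analysed and 9.38% of those named. The label of this female differs from those of the other PV females in giving a position of the germinal vesicle, and its part in these values was not tested.

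Outside the clones analysed, 281 clones were at 0 on some but not all of the 7 arrays, and each array had 406 to 550 clones at 0. Of these 281, 4 were at 0 on all PV arrays and above 0 on all LV arrays, with LV ratios of 1.11 to 1.96. The opposite was seen for 0 clones. Whether a listed 0 is a filtered spot or a signal at background is not stated in the sources. Of the 4 clones, 2 were above 0 on at least 1 maturation array. Clones at 0 on some arrays reached ratios as high as 69.0 on others, so a listed 0 was not always next to a low value. No fold change is given against a stage listed at 0.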

How the results depend on the processing

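The 2 clones higher and 0 lower in PV were also the counts after quantile normalization, re-centring, a pseudocount of 0.1, a minimum mean ratio of 0.2, an intensity trend and a fit of the 3 stages together, though tcbk0002.g.05 had an adjusted p of 0.27 in the last (limma). Higher and lower counts were 1 and 4 with clones at 0 on some arrays kept (the 4 listed at 0 on all PV arrays), 0 and 0 on linear ratios, 4 and 0 by the SAM-style test, 5 and 2 with array weights, 4 and 0 at an adjusted p under 0.10, and 1 and 0 without females 14 and 31. The 4 lower calls with zeros kept rest on listed zeros, which may be filtered spots. The cause of the differences between these counts was not tested. Leaving out 1 female in turn gave 0 to 4 higher and 0 lower calls, with 4 without PV female 31, 1 without PV female 13 or 14, and 0 without any of the others. Over the same fits, 405 to 739 clones lay entirely above and 155 to 437 entirely below LV, the listed clones at an unadjusted p under 0.05 numbered 10 to 21, the mean differences ran from -0.42 to -0.11 in cluster 1, from 0.02 to 0.14 in cluster 2 and from 0.32 to 0.75 in cluster 3, and the median SD ran from 0.147 to 0.186 in PV and from 0.108 to 0.181 in LV. The counts without overlap rise with fewer females by construction, to 909 above and 397 below without females 14 and 31, where the median SD in PV was 0.106. Clones entirely below LV numbered 210 after quantile normalization and 164 after re-centring. Of the differences of named clones under the alternatives, 538 kept their direction and side of the threshold and 15 no longer passed. All 15 came from the 2 clones that rose, the only named clones that passed in the main fit. The other named clones had not passed there, so most of the 538 say little about how stable the 2 calls were. Another 2 differences passed only in an alternative fit (tcbk0051.d.07 and tcbk0058.l.01 with array weights, adjusted p = 0.013 each, limma). That fit gave the most weight to LV female 4 and PV female 15. For tcbk0058.l.01 these were the highest LV female and the lowest PV female. The remaining 20 turned sign without passing in either fit. No paired analysis was possible because the female numbers are not shared between the stages. With 4 and 3 arrays, the unadjusted 95% interval of a typical clone reached 1.25-fold to either side, and the smaller of the 2 called differences was 2.004-fold.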
